A study of Saccharomyces cerevisiae with 6 samples.

Results

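The subunits of nuclear RNA polymerases I, II and III were examined as 31 genes of Saccharomyces cerevisiae, budding yeast, out of 5561 named genes on the array. They were chosen by gene symbol, as the known subunits of these enzymes, and all 31 were found, each with a single spot. Of these, 7 encode subunits found only in Pol I, 10 subunits only of Pol III and 7 subunits only of Pol II, while 2 are shared by Pol I and III and 5 by all 3 enzymes. RNA was compared on 6 two-colour arrays between yeast given 3, 6 or 9 mM caffeine and untreated yeast of the same strain. Every strain was W303a laboratory yeast with a deletion of the chromosomal tor1 gene, and each carried on a plasmid a TOR1 gene tagged with the 3HA epitope. The plasmid gene was either p3HA-TOR1 (called WT here) or p3HA-TOR1 [I1954V + W2176R] (called mutant here). Both groups thus lacked the native gene and relied on a plasmid copy, and 1 array was made per genotype and dose, so no dose had a replicate.

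Pol I makes the large ribosomal RNA precursor in the nucleolus, Pol III makes transfer RNAs, the smallest ribosomal RNA and other short RNAs, and Pol II makes messenger RNA. The enzymes share a common plan: a pair of large catalytic subunits, an assembly platform, a stalk, and small subunits that all of them use. Caffeine inhibits TOR complex 1, the growth-controlling kinase complex, whose activity is known to promote transcription by Pol I and Pol III. Here the messenger RNA of the subunits was measured, not the activity of the enzymes.

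All values are log2 ratios, taken as caffeine (Cy5) over no caffeine (Cy3), less the median of named genes on that array. Which channel was divided by which is not stated in the labels. Cy5 over Cy3 is likely, since the scans were GenePix files, in which that order is usual. Against it, the sample titles and the deposited notes name the untreated sample first and caffeine second. The opposite order would turn every sign, so that each fall given here would be a rise. Medians subtracted in centring lay between -0.22 and -0.54. For each genotype a line in dose through 0 was fitted with limma over the 5212 genes with a value on all 6 arrays, and a slope (log2 per mM, given ± its SE, from a spread estimated over all 6 arrays) counted as a call where its p, adjusted by Benjamini-Hochberg, was below 0.05. Of the 31 subunit genes, 30 entered this fit, and RPA14, without a value on the mutant 6 mM array, did not. TOR1 had no called slope in either genotype, with values between -0.25 and -0.06 in WT and between 0.24 and 0.37 in the mutant. TOR2, which encodes the other TOR kinase, stood at -0.13, -0.10 and -0.91 in WT and at -1.14, -1.20 and -0.44 in the mutant, and no slope was called (adjusted p = 0.243 and 0.0745). TOR2 was called lower in the mutant on the deposited values, by means over doses and without the mutant 9 mM array. Levels within 1 strain cannot be read from ratios, so neither the mating type nor the plasmid allele could be checked on these arrays. Of markers of the other mating type (alpha), 3 of 5 rose in WT and 1 of 5 in the mutant, and of 6 a-specific genes, 3 and 1 rose. Of all genes, 17.2% were called higher in WT and 12.1% in the mutant. No defining alpha marker could be scored as present or absent. The part of these genes in the results was not tested.

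In WT cells given caffeine, 19 of 30 subunit genes fell, 11 did not pass the test and none rose, where 16.3% of all genes were called lower and 17.2% higher. No subunit gene had a higher slope at an unadjusted p below 0.05 either, where 22.6% of all genes had. The steepest falls were those of RPA43 and RPA34 of Pol I, RPC17 of Pol III and RPB5, which all 3 enzymes share, followed by RPA12 and RPC31. Among genes not unique to Pol II, 18 of 23 fell, but among genes of Pol II alone 1 of 7 fell. In the mutant 9 of 30 fell and none rose, where 15.8% of all genes were called lower and 12.1% higher. The median slope of the 30 genes was -0.15 per mM in WT and -0.063 in the mutant, where the median over all genes tested was 0.00053 and 0.00019. Without the WT 6 mM array 12 genes were called lower in WT. The calls rest on a fit that forces each line through 0, so a gene about equally low at every dose can also count as a fall. With an intercept shared by all arrays, which allows a constant dye bias of each gene, 1 of the 19 WT falls (RPB5) and none of the 9 mutant falls was still called.

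**Figure D1:**
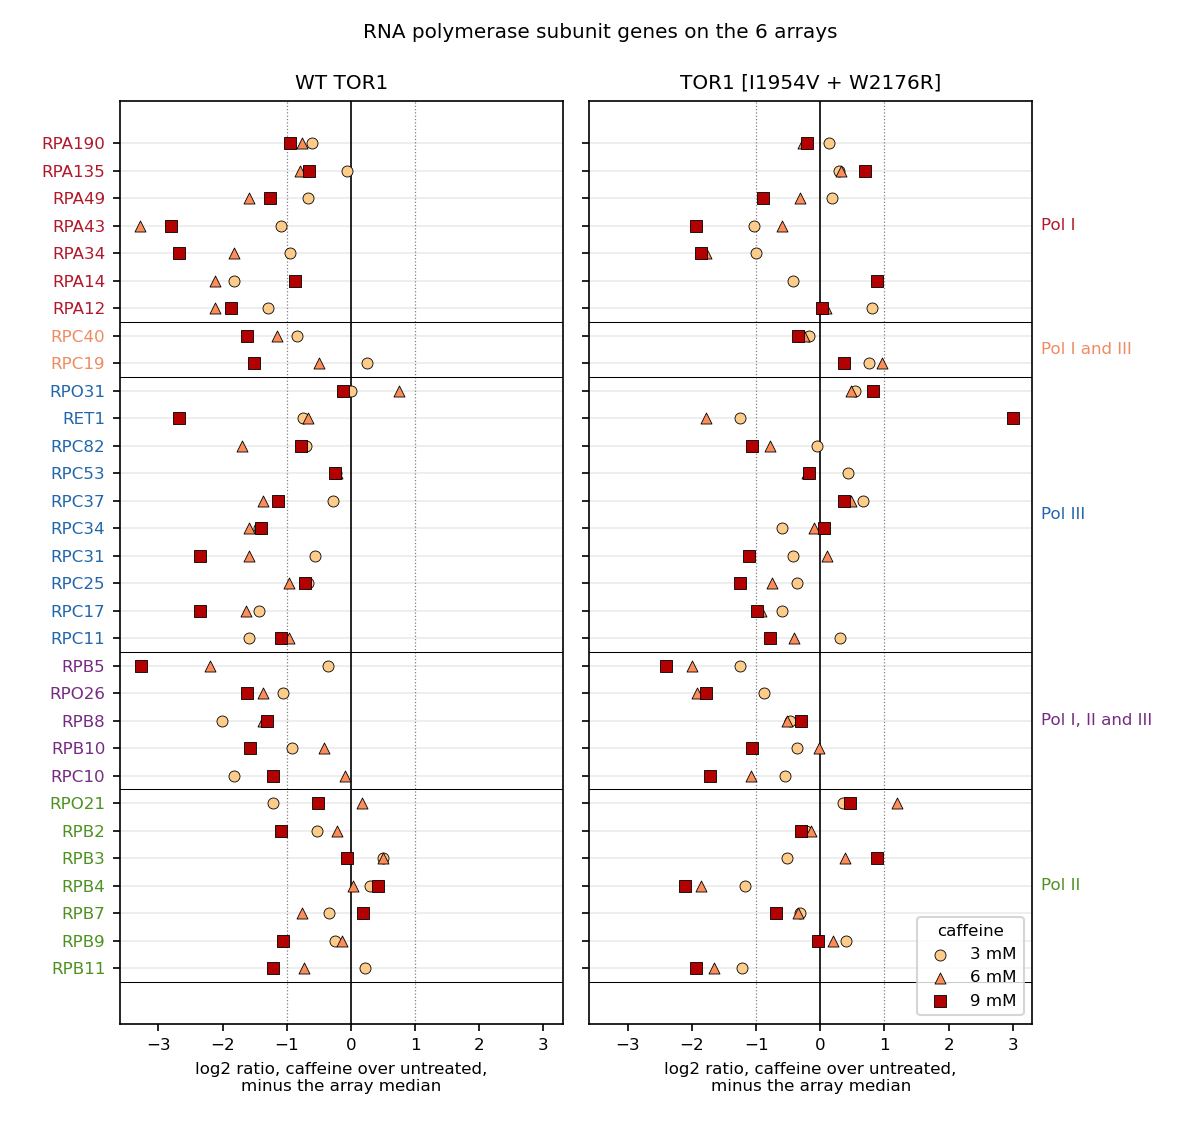
Centred log2 ratio (x axis, caffeine over untreated) of each of the 31 subunit genes (y axis, coloured by polymerase) in WT (left) and mutant (right), with 1 point per array and dotted lines at 2-fold. In WT most points of Pol I, Pol III and shared subunits lie left of 0, and RPA43 and RPB5 reach -3.29 and -3.27, while in the mutant RPB4, RPB5 and RPB11 lie farthest left and RET1 at 9 mM stands alone at 3.00.

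Counts of subunit genes at least 2-fold below the array median followed the same order. In WT they were 10, 14 and 20 of 31 at 3, 6 and 9 mM, where 8.67%, 13.1% and 18% of all genes measured on those arrays were that low. In the mutant they were 6 of 31, 7 of 30 and 11 of 31, where 8.63%, 17.6% and 13.9% of all genes were that low. No subunit gene was 2-fold higher in WT, where 9.42%, 14% and 17% of all genes were. In the mutant none was at 3 mM, RPO21 was at 6 mM and RET1 was at 9 mM, where 4.4%, 7.38% and 14.6% of all genes were that high. With 1 array per dose these counts have no test.

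Pol I subunit genes gave the lowest class medians on the WT arrays of 6 mM. The median of the 7 genes was -0.95, -1.83 and -1.27 in WT at 3, 6 and 9 mM and 0.14, -0.29 and -0.20 in the mutant (6 genes at 6 mM). Of 6 tested, 5 fell in WT and 2 fell in the mutant. All 7 lay below 0 on every WT array.

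RPA43, the stalk subunit that binds the initiation factor Rrn3, stood at -1.09, -3.29 and -2.81 in WT and at -1.03, -0.60 and -1.94 in the mutant. Its WT values were far lower at 6 and 9 mM than at 3 mM, and in the mutant 9 mM gave the lowest value. The slope was -0.38 ± 0.05 per mM in WT (adjusted p = 8.94e-05), below that of all but about 1% of genes, and -0.19 ± 0.05 in the mutant (adjusted p = 0.0133). The mutant fall was no longer called without the mutant 9 mM array. The deposited WT ratio at 6 mM was 0.08, given to 2 decimals, so rounding alone spans 0.18 log2 units there.

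RPA34, which pairs with RPA49 in a part of the enzyme related to the Pol II factor TFIIF, was lower at each higher dose in both genotypes. It stood at -0.95, -1.83 and -2.68 in WT and at -1.0, -1.79 and -1.86 in the mutant, so the genotypes nearly coincided at 3 and 6 mM. It fell by 0.30 ± 0.04 per mM in WT (adjusted p = 8.65e-05) and by 0.24 ± 0.04 in the mutant (adjusted p = 0.00114). Its partner RPA49 stood at -0.67, -1.58 and -1.27 in WT, where it fell (adjusted p = 0.00408), and at 0.19, -0.32 and -0.90 in the mutant, where it did not pass. On the deposited values RPA49 was called lower in the mutant (adjusted p = 0.0217).

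RPA12, the zinc-ribbon subunit needed for cleavage of the nascent RNA, separated the genotypes most clearly within Pol I. It stood at -1.30, -2.12 and -1.87 in WT and at 0.81, 0.09 and 0.02 in the mutant, so that the groups did not overlap. It fell in WT with a slope of -0.27 ± 0.05 (adjusted p = 0.000752), and its mutant slope was 0.03 ± 0.05 (adjusted p = 0.704).

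The catalytic subunits of Pol I had smaller values. RPA190, the largest subunit, stood at -0.61, -0.76 and -0.94 in WT and fell at -0.12 ± 0.04 per mM (adjusted p = 0.0253), a call lost without the WT 6 mM array or the WT 9 mM array. RPA135, its catalytic partner, stood at -0.05, -0.79 and -0.65 in WT and at 0.29, 0.32 and 0.70 in the mutant, and neither slope passed (adjusted p = 0.0924 and 0.155). RPA14, the small stalk partner of RPA43, was measured on 5 arrays, at -1.82, -2.12 and -0.87 in WT and at -0.43 and 0.88 in the mutant at 3 and 9 mM. Its WT values were therefore lowest at 6 mM, and no WT value reached the lower of its mutant values. In the fit that admits genes with at least 2 values per genotype, and so dropped its missing array, RPA14 fell in WT at -0.21 ± 0.06 (adjusted p = 0.0189).

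RPC40 and RPC19, the alpha-like pair on which both Pol I and Pol III assemble, fell in WT and did not pass in the mutant. RPC40 stood at -0.85, -1.16 and -1.62 in WT and at -0.18, -0.25 and -0.35 in the mutant. Every WT value of RPC40 was below every mutant value, and its WT slope was -0.19 ± 0.04 (adjusted p = 0.00151). RPC19 stood at 0.25, -0.50 and -1.51 in WT and at 0.75, 0.96 and 0.37 in the mutant, and its WT slope was -0.13 ± 0.04 (adjusted p = 0.0429). The WT call for RPC19 ended without the WT 6 mM, the WT 9 mM or the mutant 3 mM array. It was also lost by means over doses (adjusted p = 0.172). RPC40 was called lower in the mutant on the deposited values (adjusted p = 0.0469). The difference between genotypes was not called for either gene (adjusted p = 0.116 for RPC40 and 0.0685 for RPC19). For RPC19 it was called, as higher in the mutant, by means with dose as a block (adjusted p = 0.0463), with the shared intercept (0.0382) and without the mutant 9 mM array (0.046).

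Of the 10 genes of Pol III alone, 7 fell in WT and 2, RPC25 and RPC17, fell in the mutant. The class median was -0.68, -1.17 and -1.12 in WT, against -0.21, -0.31 and -0.48 in the mutant. Without the WT 6 mM array 3 of the 10 were called lower in WT, without the mutant 6 mM array or the mutant 9 mM array neither mutant fall was called, and without the mutant 3 mM array that of RPC17 was not.

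RPC82, RPC34 and RPC31, the trimer that contacts the initiation factor TFIIIB at promoters, were each called lower in WT. RPC31 stood at -0.56, -1.58 and -2.36 in WT, lower at each higher dose, and at -0.43, 0.11 and -1.11 in the mutant. Its WT slope was -0.26 ± 0.04 (adjusted p = 0.0004). RPC34 stood at -1.43, -1.58 and -1.41 in WT, about equally low at every dose, and at -0.59, -0.10 and 0.06 in the mutant. RPC34 was called lower in WT (adjusted p = 0.00327), and with the shared intercept its WT slope was -0.041 (adjusted p = 0.802). Its WT and mutant values did not overlap. RPC82 was lowest at 6 mM in WT, at -1.70 against -0.70 and -0.77, and fell with adjusted p = 0.0169. In the mutant none of the 3 passed, although RPC82 was called lower there without the WT 6 mM or the WT 9 mM array. On the deposited values RPC82 and RPC31 were both called lower in the mutant (adjusted p = 0.0101 and 0.0128).

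RPC17, of the stalk, stood at -1.43, -1.64 and -2.36 in WT and at -0.59, -0.93 and -0.98 in the mutant, with no overlap. It fell in both, at -0.28 ± 0.04 (adjusted p = 0.000181) and -0.13 ± 0.04 (adjusted p = 0.03). Its stalk partner RPC25 stood at -0.67, -0.96 and -0.71 in WT and at -0.36, -0.76 and -1.25 in the mutant, so the genotypes overlapped, and both slopes were called (adjusted p = 0.0362 and 0.0213). The WT call for RPC25 was the least stable of the class and was lost without any of 5 arrays, the exception being the mutant 9 mM array.

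RPC37 and RPC53 form the TFIIF-related pair of Pol III, which acts in termination and reinitiation with RPC11. RPC37 stood at -0.27, -1.38 and -1.14 in WT, where it fell (adjusted p = 0.0105), and at 0.67, 0.48 and 0.37 in the mutant. RPC53 hardly left the array median, at -0.23, -0.22 and -0.24 in WT, against 0.43, -0.20 and -0.18 in the mutant, and neither slope passed. The zinc-ribbon subunit RPC11 was lowest in WT at 3 mM, with -1.58 against -0.96 and -1.10, and fell (adjusted p = 0.0178). Without the WT 6 mM array the WT calls of RPC37 and RPC11 were lost (adjusted p = 0.0698 and 0.0693).

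Neither catalytic gene of Pol III had a called slope over the 6 arrays, as was also the case for RPC53. RPO31, the largest subunit, stood at 0.00, 0.75 and -0.12 in WT and at 0.54, 0.48 and 0.82 in the mutant. RET1, the other catalytic subunit, stood at -0.75, -0.67 and -2.68 in WT and at -1.26, -1.79 and 3.00 in the mutant. The last value is opposite in sign to the remaining 5 arrays and rests on a single spot of a single array. Without the mutant 9 mM array, RET1 fell in both genotypes, with a WT slope of -0.24 ± 0.04 (adjusted p = 0.000862) and a mutant slope of -0.32 ± 0.07 (adjusted p = 0.0113). Without the mutant 6 mM array it fell in WT (adjusted p = 0.00649) and rose in the mutant, with a slope of 0.26 (adjusted p = 0.0315).

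Of the 5 genes whose products serve all 3 enzymes, 4 fell in WT and 3 fell in the mutant. Their median in WT was -1.05, -1.38 and -1.57. In the mutant it was -0.54, -1.08 and -1.72, the lowest of any class at each dose. All 5 lay below 0 on all 6 arrays.

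RPB5, a jaw subunit that grips the DNA ahead of the enzyme, had the steepest fall of the 5 in both genotypes. It stood at -0.36, -2.20 and -3.27 in WT and at -1.26, -2.00 and -2.41 in the mutant, lower at each higher dose in both. The slopes were -0.35 ± 0.04 (adjusted p = 5.87e-05) and -0.30 ± 0.04 (adjusted p = 0.000647), and the 95% interval of mutant minus WT ran from -0.08 to 0.18 per mM.

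RPO26, a small subunit that stabilises the assembled enzyme, stood at -1.05, -1.38 and -1.62 in WT and at -0.87, -1.93 and -1.79 in the mutant. The genotypes overlapped, and it fell in both (adjusted p = 0.0019 and 0.00181). RPB8 was lowest in WT at the lowest dose, with -2.02, -1.38 and -1.31, against -0.47, -0.52 and -0.30 in the mutant. RPB8 was called lower in WT (adjusted p = 0.00796) and did not pass in the mutant. With the shared intercept its WT slope was -0.0019 (adjusted p = 0.99). RPB10, a small zinc-binding subunit, stood at -0.91, -0.43 and -1.57 in WT and at -0.36, -0.02 and -1.06 in the mutant, with adjusted p = 0.0127 for its fall in WT and 0.138 in the mutant. The WT call was lost for RPB8 without the WT 6 mM array and for RPB10 without the WT 9 mM array. RPB10 was called lower in the mutant on the deposited values (adjusted p = 0.0166). RPC10, another small zinc-binding subunit (also called RPB12), stood at -1.82, -0.10 and -1.22 in WT, where it did not pass (adjusted p = 0.0615). It was called lower in WT on the deposited values (adjusted p = 0.018) and by means over doses (0.0372). In the mutant RPC10 stood at -0.54, -1.08 and -1.72 and fell (adjusted p = 0.0197), a call lost without the mutant 6 mM or the mutant 9 mM array.

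**Figure D2:**
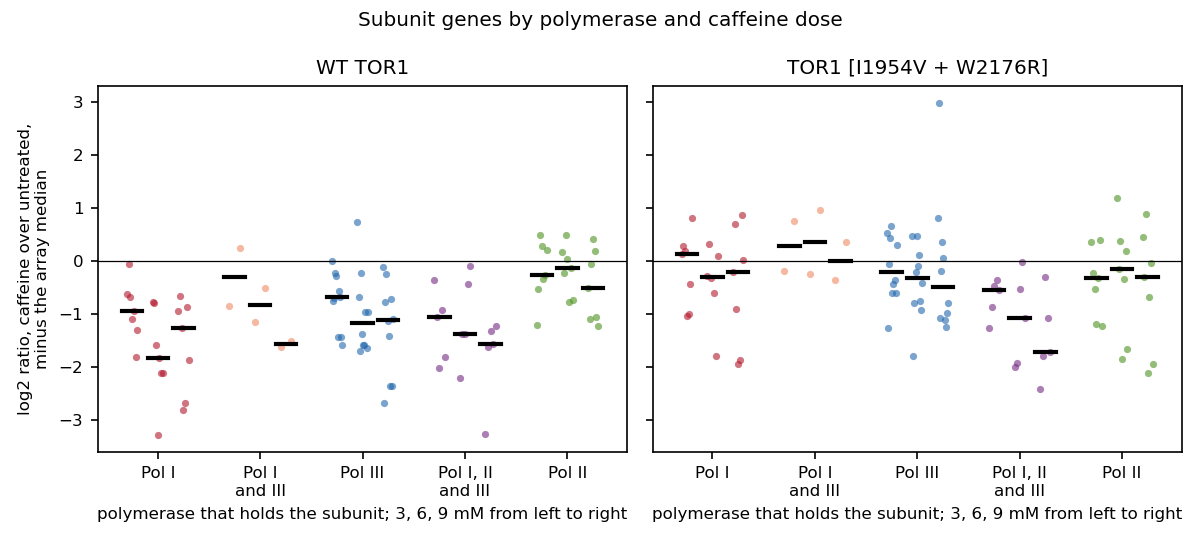
Centred log2 ratio (y axis) of each subunit gene as a point, by the polymerase that holds the subunit (x axis) and by dose from left to right, in WT (left) and mutant (right), with bars at the class median. In WT the Pol I median reaches -1.83 at 6 mM and the Pol II median stays between -0.14 and -0.51, while in the mutant the genes of all 3 enzymes have the lowest median, at -1.72 at 9 mM.

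Genes of Pol II alone had the class medians nearest 0 in WT at each dose. The Pol II median was -0.25, -0.14 and -0.51 in WT, against -0.32, -0.14 and -0.30 in the mutant. RPB11 was the only 1 of the 7 that fell in WT, and RPB4 and RPB11 fell in the mutant. On the values as deposited 3 of the 7 were called lower in WT (RPB2, RPB9 and RPB11), and RPB2 was also called without the WT 6 mM array.

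RPB4, the stalk subunit that can leave the enzyme and also acts in the export and decay of messenger RNA, stood at 0.29, 0.04 and 0.42 in WT and at -1.18, -1.86 and -2.11 in the mutant. Every WT value of RPB4 lay above the array median and every mutant value at least 2-fold below it. The WT slope was 0.04 ± 0.04 (adjusted p = 0.472) and the mutant slope -0.27 ± 0.04 (adjusted p = 0.000708). RPB7, its stalk partner, stood at -0.34, -0.76 and 0.19 in WT and at -0.32, -0.34 and -0.68 in the mutant, and did not pass in either (adjusted p = 0.597 and 0.19). On the deposited values RPB7 was called lower in the mutant (adjusted p = 0.0254).

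RPB11, of the assembly platform, stood at 0.21, -0.73 and -1.22 in WT and at -1.22, -1.66 and -1.94 in the mutant, lower at each higher dose in both. It fell in WT (adjusted p = 0.042, lost without any of the WT 6 mM, WT 9 mM and mutant 6 mM arrays) and in the mutant (adjusted p = 0.00159). By means over doses the WT call of RPB11 was lost too (adjusted p = 0.154). Its platform partner RPB3 stood at 0.49, 0.50 and -0.06 in WT and at -0.52, 0.38 and 0.89 in the mutant, with neither slope called.

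RPO21, the largest subunit of Pol II, stood at -1.21, 0.17 and -0.51 in WT and at 0.36, 1.20 and 0.46 in the mutant. RPB2, its catalytic partner, stood at -0.53, -0.22 and -1.10 in WT and at -0.22, -0.14 and -0.30 in the mutant. RPB9, the zinc-ribbon subunit that acts in start-site choice and fidelity, stood at -0.25, -0.14 and -1.06 in WT and at 0.39, 0.20 and -0.04 in the mutant. None of these 3 passed in either genotype, and for RPO21 and RPB9 every WT value lay below every mutant value.

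Corresponding parts of the enzymes differed in how far their messages were lowered. Of the 6 catalytic subunits, 1 (RPA190) fell in WT and none in the mutant, against 18 and 9 of the 24 other genes tested. The catalytic count changed with the setting. On the deposited values RPA190, RPA135, RET1 and RPB2 were called lower in WT, among 24 of all 30 genes. Without the mutant 9 mM array RET1 was called lower in WT (adjusted p = 0.000862) and in the mutant (0.0113). The median of the catalytic genes at 9 mM was -0.80 in WT and 0.58 in the mutant, and that of the other subunits -1.27 and -0.90. These splits by part were described, not tested. The catalytic genes are the longest, and over the 30 genes the Spearman correlation of gene length (RefSeq, assembly R64) with slope was 0.21 in WT and 0.42 in the mutant. Over all 5212 genes it was -0.015 and -0.0056. Points within each correlation share the same arrays.

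Partners within 1 part were also unequal. At 9 mM, RPB4 and RPB7 of the Pol II stalk stood at 0.42 and 0.19 in WT but at -2.11 and -0.68 in the mutant. RPA43 and RPA190 are neighbours in the annotation (YOR340C and YOR341W), on opposite strands. Their WT values at 9 mM were -2.81 and -0.94, and in the mutant they were -1.94 and -0.20. At 9 mM the stalk gene thus lay well below its neighbour, the catalytic gene, in both genotypes. RPA43 was the lower at the other doses too, but by less at 3 mM in WT (-1.09 and -0.61) and at 6 mM in the mutant (-0.60 and -0.27).

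**Figure D3:**
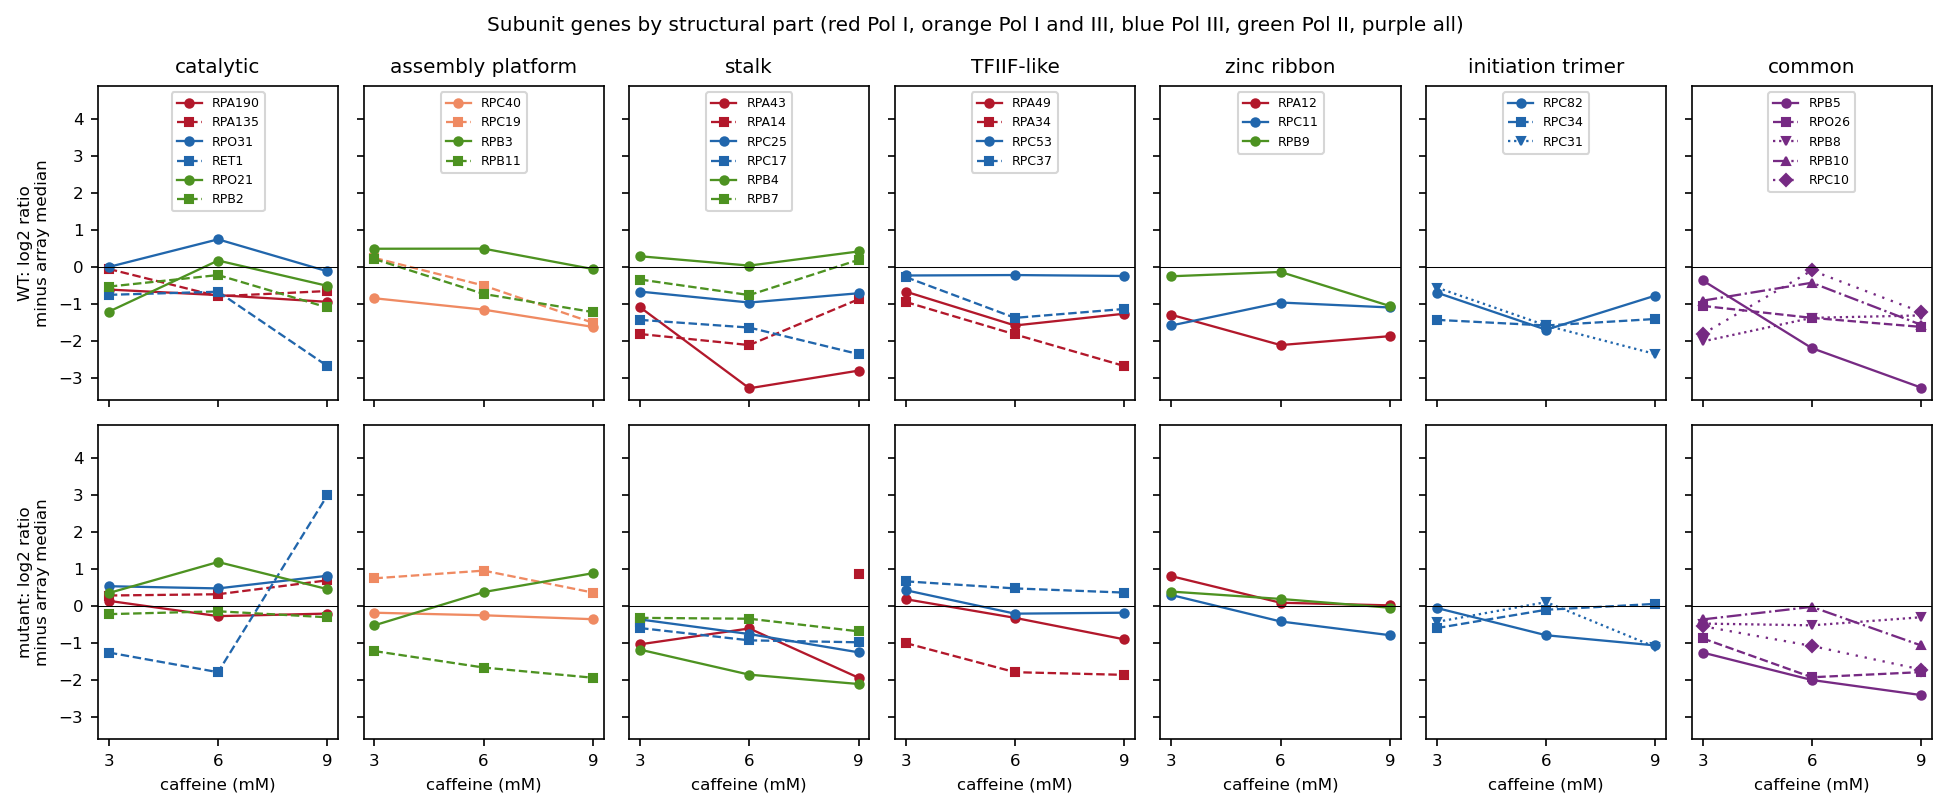
Centred log2 ratio (y axis) against caffeine dose in mM (x axis) for each subunit gene, in WT (top row) and mutant (bottom row), with 1 column per structural part and 1 line per gene. The zinc-ribbon genes lie below 0 in WT, where RPA12 reaches -2.12, and near or above 0 in the mutant at 3 mM, and RET1 turns from -1.79 to 3.00 between 6 and 9 mM in the mutant.

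The dose at which a gene was lowest varied. In WT, 16 of the 30 genes were lowest at 9 mM, 10 at 6 mM and 4 at 3 mM, where 38.1% of all genes were lowest at 9 mM and 33.9% at 3 mM. A value lower at each higher dose was seen in 9 of 30 genes in WT and in 15 of 30 in the mutant, where 19.5% and 20% of all genes had this order. Of the 6 Pol I genes with a value on all arrays, 4 were lowest in WT at 6 mM.

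Mutant and WT slopes were compared directly in the same fit. The mutant slope was higher than the WT slope for RPA12 and RPC37 and lower for RPB4, and 27 of 30 differences did not pass, where 1.94% of all genes were called higher and 2.32% lower. The difference, mutant minus WT, was 0.29 ± 0.06 per mM for RPA12 (adjusted p = 0.0295), 0.22 ± 0.06 for RPC37 (adjusted p = 0.0482) and -0.31 ± 0.05 for RPB4 (adjusted p = 0.0148). None of the 3 calls survived the removal of every array in turn. That of RPB4 was lost without the WT 6 mM array, that of RPA12 without the WT 6 mM, mutant 3 mM or mutant 6 mM array, and that of RPC37 without any 1 of the 6 arrays. A constant dye bias of a gene cancels in this difference, and with the shared intercept all 3 were still called. By means over doses, with dose as a block, RPC19, RPC34, RPO21 and RPB8 were also called higher in the mutant (adjusted p = 0.0463, 0.0342, 0.0402 and 0.045). The shared intercept also called RPC19 and RPC34. RPA43 was called higher in the mutant without the WT 9 mM array, RPC19 without the mutant 9 mM array and RET1 without the mutant 6 mM array.

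The direction of the difference was shared beyond the called genes. In 24 of 30 genes the mutant slope was the higher, with a median difference of 0.094 per mM, where the median over all genes tested was -0.010. Of the 18 genes in Pol I, Pol III or both, 17 had the higher slope in the mutant, the exception being RPC25, and the median difference was 0.15. For the genes of Pol II alone the count was 4 of 7 and for those of all 3 enzymes 3 of 5, with medians of 0.038 and 0.049. The share of all genes with a higher mutant slope was not counted, so these counts cannot be called particular to the subunits. At unadjusted p below 0.05, 11 genes were higher and 2 lower in the mutant, where 10.3% and 10.9% of all genes were.

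At matched doses the mutant value was above the WT value at all 3 doses for 18 of 30 genes and below it at all 3 for 2 (RPB4 and RPB11), where 24.5% and 26.3% of all genes had these orders. Every WT array was below every mutant array for 13 of 30, where 13.7% of all genes were so ordered, and the reverse held for RPB4 alone, against 14.6% of all genes. Of the 18 genes in Pol I, Pol III or both, 10 had no overlap of this kind. Of the 19 genes that fell in WT, 7 also fell in the mutant (36.8%), which is 77.8% of the 9 mutant falls. The same overlap was not counted over all genes, so these shares cannot be called particular to the subunits. A call in 1 genotype and not in the other is no test of a difference.

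**Figure D4:**
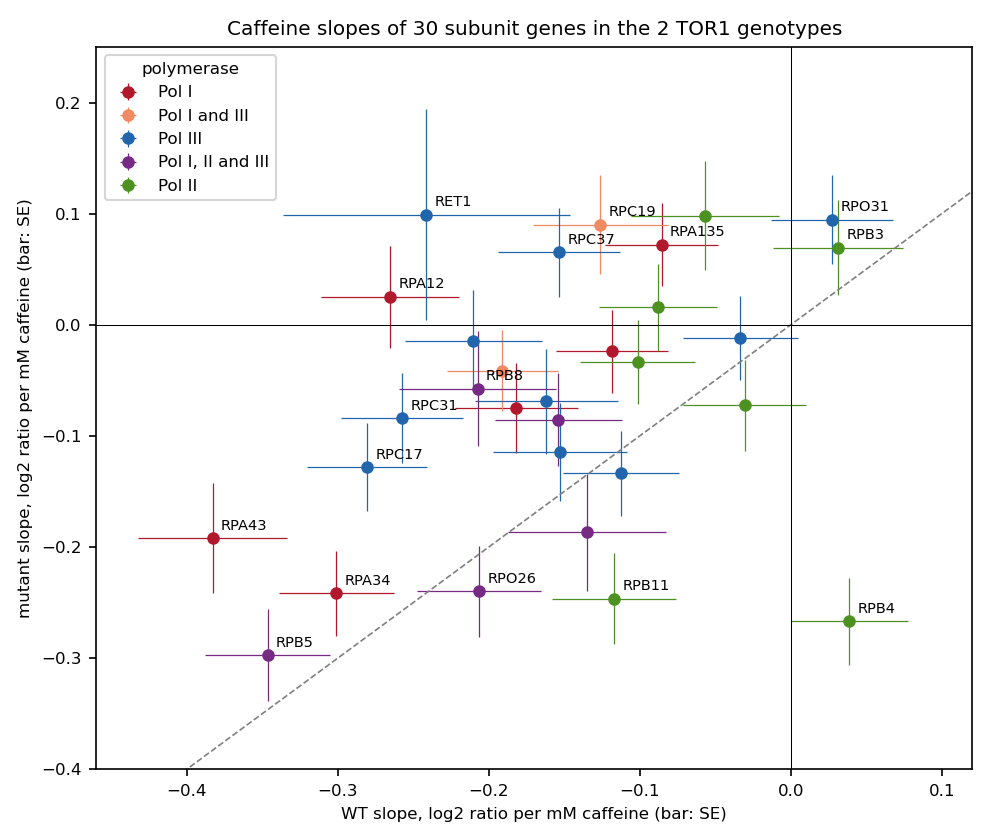
Slope of log2 ratio per mM caffeine in WT (x axis) against the mutant (y axis) for the 30 tested subunit genes, with bars of 1 SE, colours for the polymerase and a dashed line where both are equal. Most genes of Pol I and III lie above the dashed line, RPB5, RPO26 and RPA34 lie near it, and RPB4 lies far below it at 0.04 and -0.27.

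Factors that work with the polymerases were taken from lists chosen for their function, and their counts stand beside the shares of all genes given above (16.3% lower and 17.2% higher in WT, 15.8% and 12.1% in the mutant). Of 8 tested initiation factors of Pol I, 4 fell and 2 rose in WT, and 3 fell and 1 rose in the mutant. RRN3, whose product binds RPA43 and brings Pol I to the promoter, stood at -1.17, -1.53 and -1.62 in WT and at -1.22, -1.86 and -1.65 in the mutant, and fell in both (adjusted p = 0.0022 and 0.00288). RRN7 and RRN11, of the core factor, fell in WT (adjusted p = 0.00191 and 0.00479), and RRN11 also in the mutant (adjusted p = 0.0369), a call lost without any 1 of the mutant arrays. RRN5, of the upstream activating factor, moved against the subunits in WT, at 1.64, 2.72 and 1.92, where it rose (adjusted p = 0.000564), and stood at -0.52, -1.12 and -1.02 in the mutant. Its slopes differed by -0.44 ± 0.07 (adjusted p = 0.0104), a call lost without the WT 6 mM array. The mutant slope of RRN5 did not pass (adjusted p = 0.0543) but was called lower on the deposited values, by means over doses, and without the WT 6 mM or the WT 9 mM array.

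Of 6 tested genes among the Pol III initiation factors and MAF1, none fell or rose in WT, and 2 fell and 1 rose in the mutant. On the deposited values BRF1 and TFC3 were called lower in WT. BRF1, the TFIIB-related part of TFIIIB, stood at -0.30, -0.12 and -1.14 in WT and at -1.03, -1.93 and -1.46 in the mutant, where it fell (adjusted p = 0.00379). TFC3, a subunit of TFIIIC, also fell in the mutant (adjusted p = 0.0133), and PZF1, the factor TFIIIA, rose there (adjusted p = 0.0494). The call for TFC3 was lost without the mutant 6 mM array, and that for PZF1 without any 1 of the mutant arrays, on the deposited values and with unaveraged spots. MAF1, the repressor of Pol III, stood at 0.54, 0.39 and 1.41 in WT and at -0.34 and -0.30 in the mutant at 3 and 9 mM, with no value at 6 mM, so it was not in the fit over 6 arrays. In the fit that dropped its missing array MAF1 rose in WT at 0.13 ± 0.04 (adjusted p = 0.0228).

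Of 19 tested general factors of Pol II, 2 fell and 2 rose in WT, and 6 fell and 2 rose in the mutant. These counts were not tested against the shares of all genes. TAF14, shared by TFIIF, TFIID and chromatin complexes, rose in both, at 2.16, 2.07 and 2.18 in WT, against 1.26, 1.51 and 2.17 in the mutant. RAD3, a helicase of TFIIH, and TOA2, of TFIIA, fell in both, and TFB1 of TFIIH rose in WT (adjusted p = 0.0204). The mutant call for RAD3 was lost without any 1 of the mutant arrays, the WT call for TOA2 without the WT 3 mM or the WT 9 mM array and by means over doses, and that for TFB1 without the WT 6 mM array and on the deposited values. Of 7 tested factors that assemble or import polymerases, 2 fell and 1 rose in WT and none passed in the mutant. NPA3, a GTPase needed for nuclear import of Pol II, fell in WT (adjusted p = 0.00153), as did RBA50 (adjusted p = 0.041), and IWR1, an import adaptor, rose (adjusted p = 0.00832). The call for IWR1 was lost without the WT 9 mM array and on the deposited values. That for RBA50 was lost by means over doses and without the WT 3 mM, WT 9 mM, mutant 3 mM or mutant 6 mM array. With the shared intercept none of the WT or mutant calls that the fit over 6 arrays gave for the factors named here was kept. By means with dose as a block, the difference between genotypes, not called in the fit over 6 arrays, was called as higher in the mutant for RRN7, NPA3 and RBA50 (adjusted p = 0.0447, 0.0471 and 0.0476). Neither gene of mitochondrial transcription, RPO41 or MTF1, was called in either genotype.

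The small subunit processome, the particle that acts on the first product of Pol I, was set beside the subunits. Of 23 tested genes 21 fell in WT, 11 fell in the mutant and 6 had a higher slope in the mutant, and its median slope was -0.23 (WT) and -0.073 (mutant). For the 18 genes in Pol I, Pol III or both, 14 fell in WT and 4 in the mutant, with medians of -0.17 and -0.033. The steepest of the processome list was NOP56, a snoRNP protein, at -1.70, -2.58 and -3.94 in WT, against 0.29, -0.52 and -1.58 in the mutant. The difference between its slopes was called (adjusted p = 0.015), but not without the WT 6 mM array.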

How the data were processed

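Polyadenylated RNA was hybridised to 6 two-colour arrays, with untreated RNA labelled with Cy3 and caffeine-treated RNA with Cy5, per the labels. No dyes were exchanged. The deposited values were log2 ratios made by the authors. Each, as a power of 2, was a ratio with 2 decimals, which fixes the base, and the array medians lay below 0. How spots were filtered, corrected for background and normalized, and which channel was the divisor, is not given in the sources used here. Spot intensities were not used, so closeness to background is unknown, and the number of arrays limits the precision. No genome or sequences were used.

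Of 6214 probes, 5596 had 1 gene symbol, none had several and 618 were not listed in the platform annotation. All 5596 matched a RefSeq gene (assembly R64). Spots of a gene were averaged, and the median over named genes was subtracted from each array. A slope on dose per genotype, with no intercept, and mutant minus WT were fitted by lmFit and eBayes of limma 3.58.1 under R 4.3.3 (2-sided tests, 4 residual and 9.69 prior degrees of freedom) over 5212 genes and adjusted over all of them. The procedure was tested on simulated data. The labels do not say whether doses were separate cultures or whether untreated RNA was 1 pool. The p-values therefore weigh a slope, or a difference of slopes, only against the scatter of these arrays about the lines. That scatter may be technical. Alternatives were the deposited scale, a shared intercept, means over doses, a looser filter, unaveraged spots and leaving out each array. All members are accounted for in the text, and from each factor list up to 4 genes with the largest absolute WT slope were named, with RRN3, MAF1, TOR1 and TOR2 always. The members and lists were chosen with earlier results of these data known.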

Additional observations from a re-analysis of the deposited data

Results flagged for a closer look

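For 3 subunit genes the slopes of the genotypes differed by the test of the difference itself. The difference, mutant minus WT in log2 units per mM, was 0.29 for RPA12, 0.22 for RPC37 and -0.31 for RPB4. Each of these 3 calls was lost without at least 1 of the arrays. That of RPC37 was also lost on the deposited values (adjusted p = 0.0702). The same test passed among the factors named with 0.31 for NOP56 and -0.44 for RRN5, and with the WT 6 mM array left out neither passed (adjusted p = 0.0659 and 0.0506). For RPA135 (0.16), IWR1 (-0.18), RBA50 (0.19) and TOR1 (0.059) every WT array lay on one side of the array median and every mutant array on the other, but the test of the difference did not pass (adjusted p = 0.105, 0.0685, 0.0715 and 0.534).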

How the results depend on the processing

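Over 30 subunit genes and 3 contrasts, the looser filter and the unaveraged spots changed no call. With a shared intercept, genes called lower in WT went from 19 to 1 (0 of Pol I, 0 shared by Pol I and III, 0 of Pol III, 0 of Pol II and 1 of those in all enzymes) and in the mutant from 9 to 0 (0 of Pol I, Pol III, Pol II and all enzymes), while genes with a higher mutant slope went from 2 to 4. All 19 and all 9 slopes kept their sign, 10 and 4 had an unadjusted p below 0.05, slopes were a median 0.82 and 0.66 times those without the intercept, and SEs a median 1.88 and 1.85 times. On the deposited values, which shift all genes down, 15 genes were called lower in the mutant (1 shared by Pol I and III, 4 of Pol III), 3 of Pol II were called lower in WT, 1 gene was higher in the mutant than in WT, and at 6 mM in the mutant 11 genes were 2-fold lower and 0 higher. By means over doses, with dose as a block for the difference, 6 genes were higher in the mutant than in WT, and 1 gene shared by Pol I and III and 0 of Pol II were called lower in WT. Leaving out 1 array at a time, genes called lower in WT numbered from 12 to 20 (4 to 5 of Pol I, 1 to 2 shared by Pol I and III, 3 to 8 of Pol III, 0 to 1 of Pol II, 3 to 4 of all enzymes). In the mutant 6 to 10 were lower (1 to 2 of Pol I, 0 to 3 of Pol III, 2 of Pol II, 2 to 3 of all enzymes) and 0 to 1 higher. For mutant minus WT 0 to 1 were lower and 0 to 2 higher. Of the WT falls 10 of 19, and of the mutant falls 5 of 9, were called whichever array was left out. Over all genes, lower and higher calls were 852 and 896 in WT, 1483 and 489 on the deposited values and 65 and 79 with the shared intercept. In the mutant they were 822 and 633, then 1737 and 201, and 8 and 14. For mutant minus WT they were 121 and 101, 114 and 48 on the deposited values and 318 and 270 by means over doses. The mutant slope of RET1 turned from 0.10 to -0.32 without the mutant 9 mM array, and was 0.26 without the mutant 6 mM array. The search for promoter motifs was not run, since no promoter sequence was used here. The labels give no replicate numbers to use as a block, so the means with dose as a block are the only paired comparison. The deposited ratios have 2 decimals, which limits values below a ratio of about 0.08.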

Other observations

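Among the 7 genes that fell in both genotypes, RPC25, RPO26, RPB5 and RPA34 had the differences nearest 0. The 95% intervals of mutant minus WT were -0.14 to 0.09 per mM for RPC25, -0.06 to 0.18 for RPA34, -0.08 to 0.18 for RPB5 and -0.16 to 0.09 for RPO26. RRN3 likewise fell in both, with a difference of -0.02 ± 0.06.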
